A study of Saccharomyces cerevisiae with 9 samples.

Results

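The 3 RNA libraries labelled as a deletion of YET3 were compared with the 3 control libraries across all genes; these 6 of the 9 libraries in the series were chosen by their titles alone. Counts of RNA per gene were measured in the budding yeast Saccharomyces cerevisiae, in cells in exponential growth in SD, a defined glucose medium. The deletion strain is labelled as carrying NATR, the nourseothricin resistance marker, in place of YET3, and the control strain as carrying NATR at HO, the gene of the mating-type endonuclease. Both strains share the HISDel1, LEU2Del0, MET15Del0 and URA3Del0 alleles. The remaining 3 libraries, labelled as overexpressing YET3, entered the fit for its estimate of the spread and are not described. They also help set the library term defined below, and so each fold change given with it. The labels do not say that repeats came from separate cultures; each p-value is then set against library-to-library variation that could be technical only.

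YET3 encodes a membrane protein of the endoplasmic reticulum (ER) related to the mammalian BAP31 proteins, and the series title concerns sterol synthesis at organelle contacts. With its partner Yet1 it forms a complex that associates with the ER protein Scs2 and the repressor Opi1, and that is needed for full activation of INO1 when inositol is lacking. The activators Ino2 and Ino4 bind DNA as a pair upstream of INO1 and of many phospholipid genes. Opi1 is held at the ER by Scs2 and phosphatidic acid while inositol is scarce, and represses these genes from the nucleus when inositol is plentiful. Genes of the glyoxylate cycle and of gluconeogenesis follow a carbon switch, in which the activators Cat8 and Adr1 turn them on when glucose runs low.

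In the libraries labelled YET3 deletion, 1 gene of 5090 tested passed the threshold. INO1, which encodes the enzyme that starts inositol synthesis, fell to a mean of 10.9 CPM (counts normalised to library size by TMM), against 102 CPM in control libraries. Around it, other genes of the Ino2-Ino4 circuit (OPI3, INO4, OPI1) and of the glyoxylate cycle and gluconeogenesis (ADR1, PCK1, ICL1) were lower in every library labelled YET3 deletion than in any control library without passing the test. Of all genes tested, 510 (10%) were lower in this way. All of these but OPI1 also met a naming rule that required such separation, so their separation is no added evidence. Genes of tRNA charging, translation factors and RNA polymerases I and III had higher medians in all 3 libraries. They are among 13 of 51 gene lists that did. No sterol synthesis gene passed the test.

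The row of the targeted gene was not near 0 in the libraries labelled as its deletion. The labels do not give the ends of the deletion, and whether the row counts RNA from outside the deleted part was not tested, so these values do not settle whether the labels are right. YET3 (YDL072C, chromosome IV, 329836 to 330447) had 722, 326 and 635 CPM in the libraries labelled YET3 deletion 1, 2 and 3, against 474, 474 and 476 CPM in control 1, 2 and 3. Those groups overlapped, with the repeats labelled 1 and 3 above every control library and the repeat labelled 2 below them. The log2 fold change was 0.24 ± 0.30 (SE, n = 3 libraries each, as for every fold change here unless libraries are left out). It was -0.54 without the libraries that stand apart, which leaves only the repeat labelled 2 in the group labelled YET3 deletion. The HO row held 5, 5 and 0 counts in the libraries labelled YET3 deletion and 32, 46 and 13 counts in the control libraries, the strain whose label places the marker at HO; the count of 0, in the repeat labelled 3, allows up to 7.94 CPM. Its log2 fold change was -3.37 ± 0.60 (edgeR quasi-likelihood test, adjusted p = 0.149). The MET17 row (MET15) held 0 counts in all 6 libraries, and LEU2 and URA3 held 0 to 3 counts. The labels do not say which HIS gene HISDel1 refers to, so the HIS3 row checks no allele: it held 54 to 253 counts in the libraries labelled YET3 deletion and 63 to 356 in the control libraries. All directions below are those of the libraries as labelled.

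The libraries labelled YET3 deletion 1 and 3 stand apart from the rest. In them the rows of YLR154W, a locus inside the ribosomal DNA, held 0.267% and 0.111% of counts, against 0.937% in the repeat labelled 2 and 0.817% to 2.42% in the control libraries; 1 overexpression library belongs with them. A coefficient for these 3 libraries, called the library term below, was past the threshold for 1524 of 5090 genes (29.9%). Totals ran between 403613 and 1634021 counts in the libraries labelled YET3 deletion and between 223189 and 1618016 in the control libraries, where 3 counts amount to 1.76 to 7.94 CPM and 1.83 to 13.1 CPM. With the library term the log2 fold change was 0.12 for YET3, -2.14 for HO and 0.23 for HIS3, which was at -0.33 without it. The sum of 7 MATa markers overlapped between groups, at 1611 to 1960 CPM against 1621 to 1788 CPM in control libraries. Of these, 1 was higher without overlap (14.3% against 9.41% of all genes). This was STE2, at 231, 166 and 304.5 CPM against 129, 131 and 140 CPM. Its log2 fold change of 0.81, and 0.39 with the library term, did not pass the test. Of 4 MATalpha markers only SAG1 was tested, at 10.6 to 22.9 CPM against 6.99 to 17.5 CPM. Its log2 fold change was 1.03, and 1.26 with the library term, and did not pass the test. MF(ALPHA)1 and MF(ALPHA)2 held 0 to 2 counts.

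Of the genes around YET3, AHK1, which encodes a scaffold of the osmosensing pathway, had 41, 25.6 and 39.7 CPM against 18.2, 12.2 and 13.1 CPM in control libraries, and its log2 fold change of 1.31 ± 0.34 did not pass the test (adjusted p = 0.40). It was at 0.87 with the library term. BDF2 and CBS1 on the other side were also higher in all 3 libraries, at 0.76 and 1.41 on the log2 scale, but at 0.22 and 0.62 with the library term. BRE1 was at 0.22 with groups that overlapped, and at -0.02 with that term. The CBS1 row held only 5, 16 and 1 counts in control 1, 2 and 3.

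**Figure D1:**
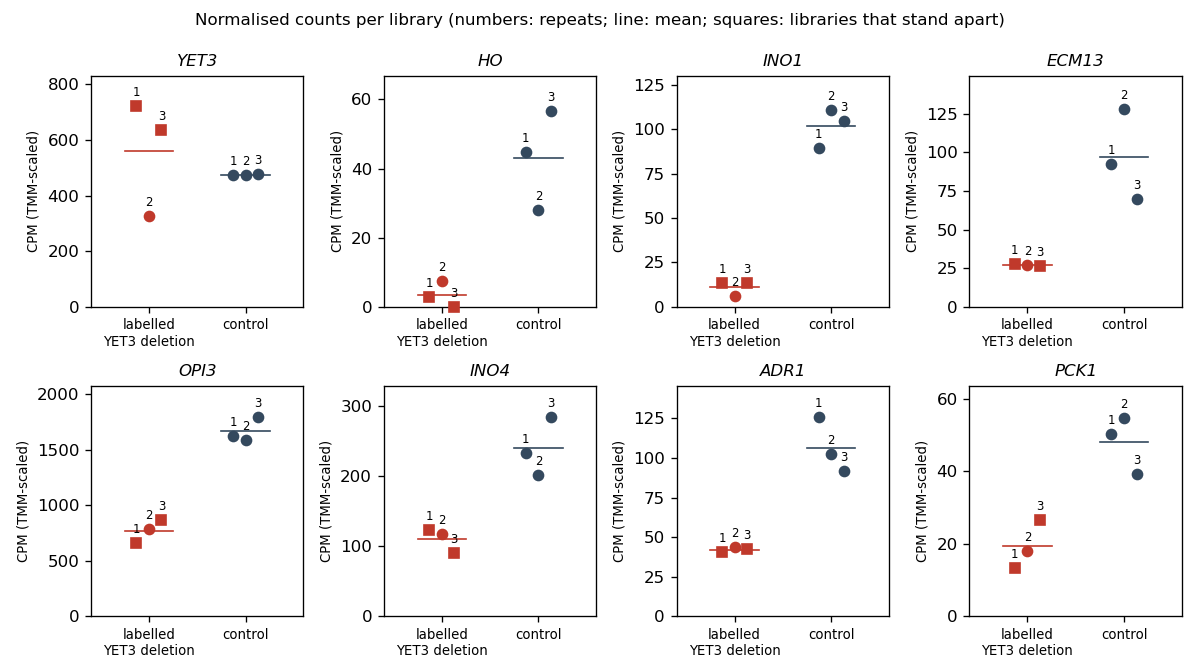
CPM of 8 genes in each library labelled YET3 deletion (left, red) and each control library (right, dark blue); numbers are repeats, lines are means over 3 libraries, and squares are the libraries with low YLR154W shares. INO1 lies at 6.03 to 13.5 CPM against 89.5 to 111 CPM, and only YET3 has groups that overlap.

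Across all genes, 1 gene was called lower (0.0196% of 5090) and 0 higher (0%) at an adjusted p under 0.05 by the edgeR quasi-likelihood test. At an unadjusted p under 0.05, 357 genes were higher (7.01%) and 247 lower (4.85%), and the library term took these to 75 higher (1.47%) and 154 lower (3.03%) with the same single call. Those 604 genes became 241, 1392 and 337 when the libraries labelled YET3 deletion 1, 2 and 3 were left out in turn, and 348, 370 and 353 when control 1, 2 and 3 were. DESeq2 called 5 genes lower (0.0982%) and 0 higher (0%). Fold changes were about even in sign, 2585 above 0 (50.8%) and 2505 below 0 (49.2%), with a median of 0.01, and with the library term 2555 were above 0 (50.2%) and 2535 below (49.8%). Groups did not overlap for 479 genes that were higher (9.41%) and 510 that were lower (10%), and 446 (8.76%) and 471 (9.25%) of them also had that sign with the library term. Past 1 on the log2 scale were 149 genes higher (2.93%) and 108 lower (2.12%); past 1 in both fits were 6 higher (0.118%) and 18 lower (0.354%).

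Upstream sequences of 4 genes of the Ino2-Ino4 circuit are shown because INO1, the gene called, is a target of it. Each runs 5′ to 3′ on the gene's strand, from 300 to 101 bases before the start codon of the R64 genome, and capitals mark CATGTG or its reverse complement CACATG, the core of the element that Ino2 and Ino4 bind.
INO1, chrX:136034-136233, minus strand: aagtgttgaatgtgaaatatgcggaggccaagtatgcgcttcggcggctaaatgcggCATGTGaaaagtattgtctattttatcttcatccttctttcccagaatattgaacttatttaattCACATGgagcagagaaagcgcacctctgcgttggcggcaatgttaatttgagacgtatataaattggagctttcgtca
OPI3, chrX:573036-573235, minus strand: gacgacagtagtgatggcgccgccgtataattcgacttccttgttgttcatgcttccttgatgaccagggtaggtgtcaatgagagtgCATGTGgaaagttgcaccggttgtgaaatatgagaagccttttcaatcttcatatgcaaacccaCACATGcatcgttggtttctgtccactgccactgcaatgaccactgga
INO4, chrXV:111987-112186, minus strand: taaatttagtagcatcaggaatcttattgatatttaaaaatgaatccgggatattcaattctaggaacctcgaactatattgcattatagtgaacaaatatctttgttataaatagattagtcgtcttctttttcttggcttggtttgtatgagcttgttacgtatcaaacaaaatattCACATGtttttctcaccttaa
CHO1, chrV:208575-208774, minus strand: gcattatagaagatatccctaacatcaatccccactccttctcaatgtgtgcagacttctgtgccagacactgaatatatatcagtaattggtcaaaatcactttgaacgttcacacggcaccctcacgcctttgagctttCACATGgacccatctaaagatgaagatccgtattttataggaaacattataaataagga
INO1 and OPI3 each hold 2 matches in the 300 bases before the start codon, 243 and 178 bases before it in INO1 and 212 and 148 bases before it in OPI3. INO4 holds 1 match, at 121 bases, and CHO1 1 match, at 159 bases. Over all tested genes with such a window, 345 of 5002 (6.90%) held the hexamer on either strand, and 14 of 22 (63.6%) tested members of the inositol and phospholipid list did. The 4 genes shown all hold it and had fold changes below 0. CDS1 and PSD2 also hold it and had fold changes above 0 without the library term. OPI1, which was lower without overlap, holds no match. A match is a description of these letters only.

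INO1 (YJL153C, chromosome X, 134332 to 135933) had 23, 4 and 5 counts in the libraries labelled YET3 deletion and 64, 182 and 24 counts in the control libraries. Scaled, these were 13.5, 6.03 and 13.2 CPM against 89.5, 111 and 105 CPM, with means of 10.9 ± 4.23 and 102 ± 11 CPM (SD, n = 3 libraries each). Groups were far apart, and the lowest value was in the repeat labelled 2, the one outside the libraries that stand apart. The log2 fold change was -3.16 ± 0.29 (edgeR quasi-likelihood test, adjusted p = 0.000453), and -3.24 with the library term (adjusted p = 6.5e-06). Over all alternatives it ran between -4.05 and -2.93, with adjusted p of at most 0.0067. In bulk cultures, fewer cells with INO1 RNA and less of it per cell cannot be told apart.

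Among other synthesis enzymes, OPI3, the methyltransferase of the last steps to phosphatidylcholine, had 661, 782 and 866 CPM against 1620.4, 1586 and 1796 CPM in control libraries. Groups were well separated, and the log2 fold change of -1.12 ± 0.22 (adjusted p = 0.288; -0.92 with the library term) did not pass in the edgeR quasi-likelihood test, though DESeq2 called it (adjusted p = 0.00277). MOG1, a nuclear transport factor gene named after its values were seen, begins inside the window shown for OPI3 on the opposite strand. It had 58, 48.2 and 111 CPM against 130.0, 135 and 109 CPM in control libraries, groups that overlapped through the repeat labelled 3 (-0.86; -1.32 with the library term). CHO2, the first methyltransferase of that branch, had 145, 176 and 82.1 CPM against 187, 249.6 and 209.7 CPM, and PSD1, the mitochondrial phosphatidylserine decarboxylase, had 89.1, 87.4 and 92.7 CPM against 109, 144 and 170.4 CPM in control libraries. Neither pair of groups overlapped, and the log2 fold changes of -0.66 and -0.63 did not pass the test. With the library term they were -0.34 and -0.58. CHO1, phosphatidylserine synthase, had 381, 327 and 437 CPM against 450.2, 486 and 446 CPM in control libraries, with the highest of the first group just under the lowest control. Its fold change of -0.28 became -0.69 with the library term. PIS1, the phosphatidylinositol synthase that uses inositol, was at 0.29, and CDS1, which makes the CDP-diacylglycerol precursor, at 0.20. Both had groups that overlapped, and with the library term they were at -0.09 and -0.19.

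The regulators of the circuit did not go one way. INO4 had 123, 118 and 90.0 CPM against 233, 201 and 284 CPM in control libraries (log2 fold change -1.08 ± 0.23, adjusted p = 0.288; -1.04 with the library term). Its partner INO2 had 9.96, 19.6 and 42.4 CPM against 25.2, 21.9 and 26.2 CPM, with the libraries labelled YET3 deletion both below and above the controls (-0.25; 0.09 with the library term). OPI1, the repressor, had 130.1, 139 and 106 CPM against 222, 191 and 319 CPM in control libraries and a log2 fold change of -0.93 ± 0.24, which missed the threshold (adjusted p = 0.40; -0.78 with the library term). SCS2, the ER protein that binds Opi1, had 154, 360.3 and 302 CPM against 345, 363 and 354 CPM, low in the repeats labelled 1 and 3 and within the control range in the repeat labelled 2. Its fold change was -0.39, and 0.20 with the library term. Of the transporters, ITR1, which imports inositol, had 819, 586 and 694 CPM against 869.6, 908 and 974 CPM in control libraries, while its minor relative ITR2 had 52.2, 61.8 and 82.1 CPM against 39.1, 60.3 and 35 CPM. The ITR1 groups did not overlap and the ITR2 groups did. Their fold changes were -0.39 and 0.41, and -0.64 and 0.12 with the library term. YET1, the partner of YET3, was at 0.00 on the log2 scale and at -0.14 with that term.

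Of the 23 genes on the inositol and phospholipid list, 22 were tested and GIT1, a glycerophosphoinositol transporter, was below the filter. By sign, 5 of the 22 were above 0 and 17 below, 1 was called lower, and 8 had groups that did not overlap, all 8 lower (36.4% against 10% of all genes). The list median was -0.39, and -0.27 with the library term, beside 0.01 and 0.00 for all genes. By library its medians relative to the control mean were -0.50, -0.27 and -0.31 in the libraries labelled YET3 deletion, against -0.09, 0.08 and 0.06 in the control libraries. Genes of the CDP-choline branch were among those that differed between the libraries themselves. PCT1, its rate-setting enzyme, had 26.4, 76.9 and 39.7 CPM against 65.7, 75.5 and 118 CPM in control libraries, and -0.83 on the log2 scale became 0.07 with the library term. CKI1, choline kinase, was at -0.67, and at -0.05 with that term.

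**Figure D2:**
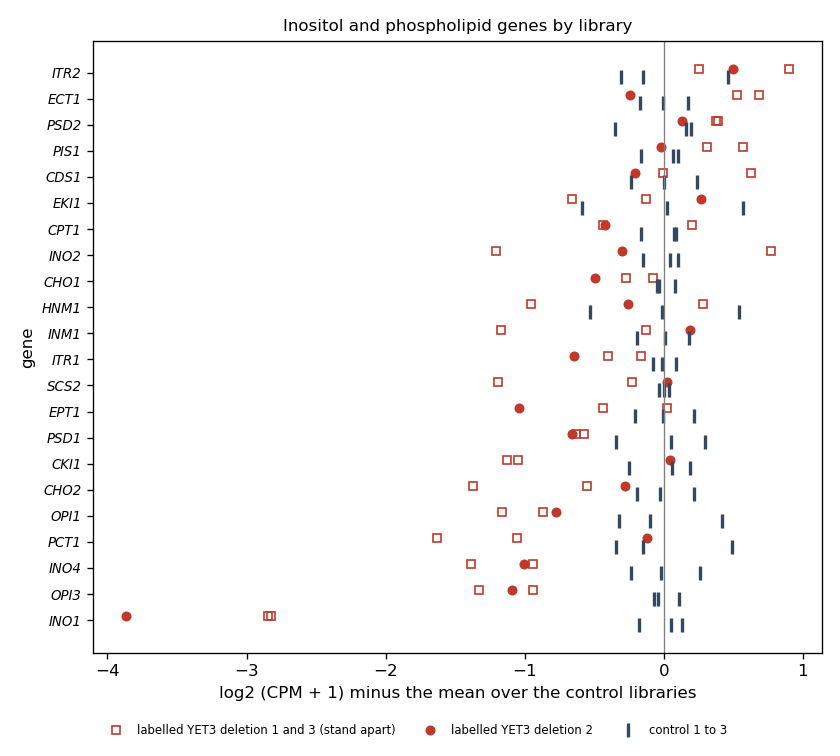
The 22 tested inositol and phospholipid genes, each library as log2 (CPM + 1) minus the mean over the control libraries; red squares and circles are libraries labelled YET3 deletion and dark bars are control libraries. INO1 sits far left of the rest, OPI3, INO4 and OPI1 are left of all their control bars, and PCT1 and CKI1 are left only in the libraries drawn as squares.

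Lower values also gathered among genes of carbon use. On the glyoxylate cycle and gluconeogenesis list, 16 of 18 genes were tested (ADH2 and SIP4 were below the filter), and 0 of 16 had a fold change above 0 in either fit. At an unadjusted p under 0.05, 8 of 16 were lower, beside 4.85% of all genes. With the library term 13 of 16 were, beside 3.03% of all genes. Groups did not overlap for 7, all lower (43.8% against 10% of all genes), and none of the 16 passed the adjusted threshold. The median was -0.80, and -0.89 with the library term, the lowest of the 51 lists with at least 5 tested genes. Medians by library were -0.98, -0.71 and -0.62 in the libraries labelled YET3 deletion, against 0.00, 0.06 and -0.05 in the control libraries. The repeat labelled 2 lay between the others.

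Of the activators, ADR1 had 40.4, 43.7 and 42.4 CPM against 126, 102 and 91.7 CPM in control libraries, with a log2 fold change of -1.36 ± 0.28 (adjusted p = 0.288; -1.04 with the library term). Its 3 values were nearly equal to each other and less than those of any control library. CAT8 had 32.8, 54.3 and 29.1 CPM against 76.9, 86.4 and 74.3 CPM, a log2 fold change of -1.04, and -0.56 with the library term. PCK1, phosphoenolpyruvate carboxykinase, the committing step of gluconeogenesis, had 13.5, 18.1 and 26.5 CPM against 50.3, 54.8 and 39.3 CPM in control libraries (-1.50 ± 0.32, adjusted p = 0.288; -1.73 with the library term). Groups were separate although all 6 values were low. FBP1, fructose-1,6-bisphosphatase, was at -0.23, and at -1.03 with the library term.

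Of the glyoxylate enzymes, ICL1, isocitrate lyase, had 92.6, 110.0 and 146 CPM against 229, 332 and 279.6 CPM in control libraries, a log2 fold change of -1.30 ± 0.32 (adjusted p = 0.40; -1.49 with the library term). MLS1, malate synthase, had 28.7, 42.2 and 7.94 CPM against 67.1, 102 and 135 CPM and a fold change of -1.79 ± 0.46 (-1.15 with the library term). Its lowest library, the repeat labelled 3, rests on 3 counts. Cytosolic partners IDP2, an isocitrate dehydrogenase, and MDH2, a malate dehydrogenase, were at -1.35 and -0.88, and at -0.82 and -0.41 with the library term. SFC1, the succinate-fumarate carrier, was at -0.84 and at -1.83 with that term.

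**Figure D3:**
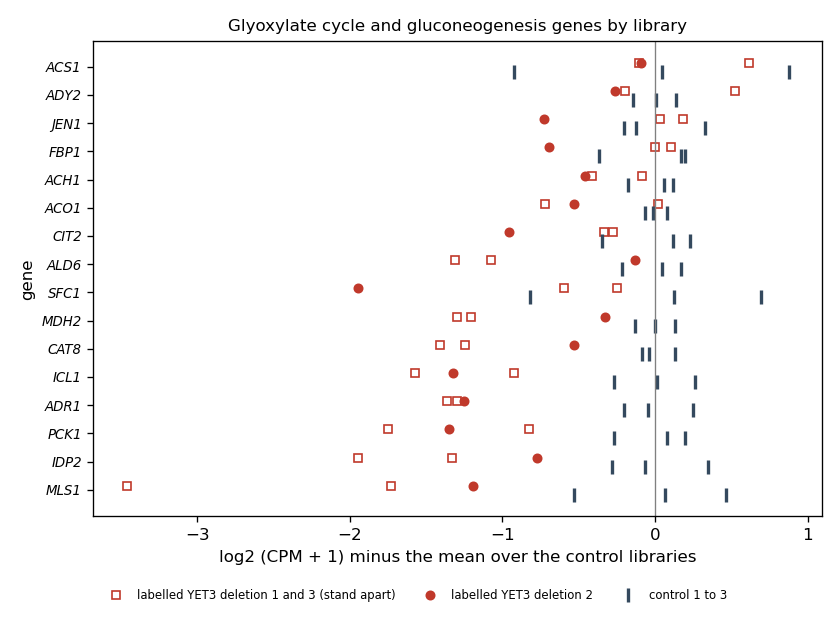
The 16 tested glyoxylate cycle and gluconeogenesis genes, each library as log2 (CPM + 1) minus the mean over the control libraries; red squares and circles are libraries labelled YET3 deletion and dark bars are control libraries. For ADR1, PCK1, ICL1 and MLS1 all 3 red symbols are left of the control bars.

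Peroxisomal genes, which burn fatty acids and feed acetyl units to that cycle, had a median nearer to that of all genes. Of 28 genes, 24 were tested, 6 were above 0, 5 were lower (20.8% against 10% of all genes) and 1 higher without overlap (4.17% against 9.41%), and the median was -0.23 (-0.12 with the library term). YAT1, a carnitine acetyltransferase that carries such units, had 26.4, 79.9 and 37.1 CPM against 129, 152 and 162 CPM in control libraries, -1.65 ± 0.42 on the log2 scale and -0.87 with the library term. GDH2, the glutamate dehydrogenase that releases ammonia, had 140.1, 140.2 and 164 CPM against 282, 293 and 227 CPM (-0.87; -0.93 with the library term). Both sets of groups were separate and neither gene passed the test. GDH2 comes from the nitrogen catabolite repression list, where 12 of 24 tested genes were above 0. Without overlap, 5 of that list were higher (20.8% against 9.41% of all genes) and 3 lower (12.5% against 10%). The respiratory chain list, 37 tested of 38, was split: 22 were above 0 and the median was 0.05, whereas 4 were above 0 with the library term and the median was -0.09. HAP4, the activator subunit that limits respiratory gene expression, was at -0.72, and at -0.56 with that term.

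Hexose transporters went both ways. HXT3 and HXT1, low-affinity glucose carriers, had 1500.0, 805 and 1456 CPM and 107, 63.3 and 175 CPM in the libraries labelled YET3 deletion, against 562, 587 and 659.7 CPM and 55.9, 53.6 and 48.1 CPM in control libraries. Both were higher in every library, at 1.06 and 1.07 on the log2 scale, but at 0.39 and 0.19 with the library term. HXT2, a high-affinity carrier, had 329, 693 and 514 CPM against 734, 772 and 760.2 CPM, and HXT6, another, 765, 932 and 1197 CPM against 1342, 1405 and 1197 CPM; reads of HXT6 may be shared with its near-identical neighbour HXT7. HXT2 was lower in every library, whereas the highest HXT6 value, in the repeat labelled 3, lay less than 1 CPM below the lowest control library. Their fold changes were -0.56 and -0.45, and -0.29 and -0.66 with the library term. STD1, a regulator of glucose sensing, had 44, 22.6 and 31.8 CPM against 18.2, 14 and 4.37 CPM in control libraries (1.28 ± 0.38; 1.03 with the library term). Its value in control 3 rests on 1 count. Of 22 genes on the list, 13 were tested, 4 were higher and 4 lower without overlap (30.8% each way, against 9.41% and 10% of all genes), and the median of -0.45 was -0.02 with the library term. None passed the test.

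Outside these lists, ECM13 had the smallest unadjusted p after INO1. It is a gene of unknown function (YBL043W, chromosome II, 136688 to 137461) and had 27.6, 27.1 and 26.5 CPM against 92.3, 128 and 69.9 CPM in control libraries. Its libraries labelled YET3 deletion were close to each other and the log2 fold change was -1.89 ± 0.33 (edgeR quasi-likelihood test, adjusted p = 0.149; -1.92 and adjusted p = 0.0684 with the library term). Without the libraries that stand apart, when 1 library labelled YET3 deletion is left and is assumed to vary like the rest, 5 genes of 5262 were called lower (0.095%): INO1, OPI3, ECM13, ICL1 and MOG1. DESeq2 called INO1, OPI3, ECM13, INO4 and ADR1 lower. ATG41, which acts in autophagy of mitochondria, had 88.5, 98 and 82.1 CPM against 171, 240.4 and 153 CPM in control libraries (-1.09 ± 0.26; -1.19 with the library term). XPT1, a purine salvage enzyme, and CCZ1, a vacuolar fusion factor, were at -1.10 and -1.17, with groups that did not overlap, and at -0.73 and -0.92 with the library term.

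Of 31 sulfur and methionine genes, 29 were tested, 9 were above 0, 5 were lower (17.2% against 10% of all genes) and 0 higher without overlap (0% against 9.41%), and the median was -0.26 (-0.21 with the library term). MHT1, which makes methionine from S-methylmethionine, had 8.79, 19.6 and 18.5 CPM against 43.3, 32.9 and 48.1 CPM in control libraries, and STR3, which makes homocysteine from cystathionine, 22.3, 15.1 and 26.5 CPM against 25.2, 49.3 and 56.8 CPM. Their fold changes of -1.49 and -1.0 were -0.78 and -1.39 with the library term. MET14, the sulfate-activating kinase, was at 0.84, but at 0.12 with the library term and at -0.26 without the libraries that stand apart. Stress genes driven by Msn2 and Msn4 had a median of -0.24 (28 tested of 30; without overlap 7 were lower, 25% against 10% of all genes, and 1 higher, 3.57% against 9.41%), and of -0.05 with the library term. DDR2 had 89.1, 170.3 and 45 CPM against 246, 256 and 183 CPM, and MSN4 itself 76.8, 73.9 and 71.5 CPM against 32.2, 47.5 and 35 CPM in control libraries, higher in each. Their fold changes of -1.16 and 0.90 were -0.47 and 0.59 with the library term. Eisosome genes, which shape plasma membrane furrows, had a median of -0.14 (-0.10 with the library term). On that list PUN1, a furrow protein, had 134, 205 and 159 CPM against 267, 292 and 310.2 CPM in control libraries (-0.80; -0.53 with the library term).

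On the higher side no gene passed the test, and the smallest adjusted p was 0.40. The gene with the smallest unadjusted p among those named there, RPC25, encodes a subunit of RNA polymerase III, which makes tRNA. It had 36.9, 33.2 and 37.1 CPM against 16.8, 14 and 17.5 CPM in control libraries (1.20 ± 0.29; 1.01 with the library term), about the same in each library of a group. RPA135, a core subunit of RNA polymerase I, had 315, 181 and 278 CPM against 120.2, 138 and 87.4 CPM (1.13 ± 0.31; 0.51 with the library term). The 12 separated genes of smallest p on this side also included VPS74, CHS3, RPB9, YER053C-A, TDA2, MON2, SIT1 and OYE2. Their log2 fold changes ran from 0.77 (OYE2) to 1.31 (VPS74 and RPB9). With the library term they ran from 0.49 (TDA2) to 0.80 (MON2). Of 25 genes for RNA polymerases I and III, 23 were tested, 15 were above 0, 7 were higher (30.4% against 9.41% of all genes) and 0 lower without overlap (0% against 10%), and the median was 0.30 (0.33 with the library term). Among the upstream windows, GCGATGAG, the PAC element found before many ribosome biogenesis genes, occurs on either strand in 7 of 23 (30.4%) of this list, in 45 of 94 (47.9%) tested ribosome biogenesis genes and in 211 of 5002 (4.22%) of all genes. The 7 genes of this list with the element are not the 7 with separate groups. RPA135, RPC11 and RPO31, next after RPC25 by p-value and higher without overlap, hold no match. The window of RPC25 is shown because it has the smallest unadjusted p on this list, with the element in capitals 194 bases before the start codon.
RPC25, chrXI:176582-176781, minus strand: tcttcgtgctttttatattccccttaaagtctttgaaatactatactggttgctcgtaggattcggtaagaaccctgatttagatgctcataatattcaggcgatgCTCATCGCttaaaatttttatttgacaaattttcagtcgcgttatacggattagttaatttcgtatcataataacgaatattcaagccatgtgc

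All 20 tRNA synthetases were tested, of which 16 were above 0, and 20 with the library term. Groups did not overlap for 9, all higher (45% against 9.41% of all genes), and the median was 0.39 (0.27 with the library term). Their medians were 0.57, 0.27 and 0.53 in the libraries labelled YET3 deletion, against -0.03, -0.05 and 0.05 in the control libraries, with the repeat labelled 2 the lowest of its group. KRS1, which charges lysine tRNA, had 1104, 665 and 759.9 CPM against 489, 486 and 472 CPM in control libraries (0.81 ± 0.24, adjusted p = 0.40; 0.50 with the library term). VAS1, which charges valine tRNA, had 674, 434 and 699 CPM against 377, 360.3 and 332 CPM in control libraries (0.75; 0.32 with the library term). Translation factors had a median of 0.25 (0.17 with the library term), with 11 of 35 higher (31.4% against 9.41% of all genes) and 1 lower without overlap (2.86% against 10%). TIF2, a copy of initiation factor eIF4A with a near-identical paralog, and SUP45, a release factor, were at 0.86 and 0.78, but at 0.37 and 0.35 with the library term. Ribosome biogenesis genes, 94 tested of 102, had a median of 0.18 (0.16 with the library term). For the 137 cytosolic ribosomal protein genes, many of them paralog pairs that share reads, the median was 0.11 and 81 were above 0, against 115 with the library term.

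The cell cycle and biosynthesis lists on this side were mixed. Of 28 tested G1/S genes (35 listed), 18 were above 0, 6 were higher (21.4% against 9.41% of all genes) and 1 lower without overlap (3.57% against 10%), and the median was 0.23 (0.25 with the library term). PRI2, a subunit of DNA primase, had 77.4, 46.7 and 71.5 CPM against 25.2, 29.8 and 39.3 CPM in control libraries (1.14 ± 0.28; 0.83 with the library term). CLN2, the cyclin of the commitment to division, had 40.4, 28.6 and 63.5 CPM against 15.4, 18.3 and 13.1 CPM, and RNR1, the large subunit of ribonucleotide reductase, 67.4, 55.8 and 50.3 CPM against 39.1, 31 and 21.8 CPM in control libraries. Each was separate between groups at modest counts, at 1.35 and 0.87, and at 0.64 and 0.61 with the library term. Purine and pyrimidine genes had a median of 0.14 (0.22 with the library term). For the vacuolar ATPase the median was 0.36, but 0.03 with the library term.

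Since the series concerns sterols, those genes were followed along the pathway. None of the 25 sterol synthesis genes, all tested, passed the test. From acetyl-CoA to farnesyl pyrophosphate, 4 of 9 were above 0 and the median was -0.10 (0.09 with the library term). From squalene to ergosterol, 8 of 16 were above 0 with a median of 0.02, and 14 of 16 with a median of 0.18 with the library term. ERG3, the C-5 sterol desaturase, had 233, 189.9 and 262 CPM against 143, 173 and 153 CPM in control libraries (0.54 ± 0.23, adjusted p = 0.40; 0.27 with the library term), separate by a narrow gap. ERG6, the sterol methyltransferase, had 93.8, 306 and 172 CPM against 315, 289.7 and 389 CPM, low in the repeats labelled 1 and 3 and within the control range in the repeat labelled 2. HMG2, a reductase isoform of the regulated step, had 67.4, 110.0 and 71.5 CPM against 109, 119.9 and 131 CPM in control libraries. Their fold changes of -0.80 and -0.52 turned to 0.22 and 0.09 with the library term. IDI1, isopentenyl diphosphate isomerase, had 132, 125 and 140.3 CPM against 97.9, 107 and 91.7 CPM, higher in each library (0.41; 0.20 with the library term).

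Sterol ester, uptake and transport genes had a median of 0.02 over 23 tested of 26, with 4 higher (17.4% against 9.41% of all genes) and 0 lower without overlap (0% against 10%). YEH2, a sterol ester hydrolase, had 76.2, 52.8 and 45 CPM against 23.8, 37.1 and 26.2 CPM in control libraries, and KES1, an oxysterol-binding protein, 159, 128 and 180.1 CPM against 109, 102 and 91.7 CPM. AUS1, a sterol importer used without oxygen, and ATF2, a sterol acetyltransferase, were also higher at 0.86 and 0.96. Their values in control 3 rest on 2 counts for AUS1 and 1 for ATF2. With the library term YEH2, KES1, AUS1 and ATF2 were at 0.42, 0.24, 0.51 and 0.76. Genes of triacylglycerol and phosphatidate had a median of -0.24, and of 0.00 without the libraries that stand apart. ER contact site genes had a median of -0.08 over 19 tested, in which NVJ1, the tether between nucleus and vacuole, had 48.1, 99.5 and 66.2 CPM against 138, 103 and 131 CPM in control libraries, and its vacuolar partner VAC8 179, 109 and 172 CPM against 97.9, 84 and 96.1 CPM. The tether was lower and the partner higher in every library, and neither passed the test. Their fold changes of -0.81 and 0.74 were -0.34 and 0.22 with the library term.

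ER folding genes of the unfolded protein response had a median of 0.16, and of -0.07 with the library term. HAC1, whose spliced RNA makes the activator of that response, had 1816, 1209 and 1975 CPM against 1331, 1209 and 1215 CPM in control libraries, and the counts do not separate spliced from unspliced RNA. Its fold change was 0.41, and -0.16 with the library term. ERV2, an ER thiol oxidase, had 197, 663 and 114 CPM against 958, 741 and 1179.6 CPM, with a log2 fold change of -1.55 ± 0.59 that was -0.49 with the library term. Its values in the repeats labelled 1 and 3 were far below the repeat labelled 2. The translocon list, the route by which proteins enter the ER, had a median of 0.10 (-0.06 with the library term).

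**Figure D4:**
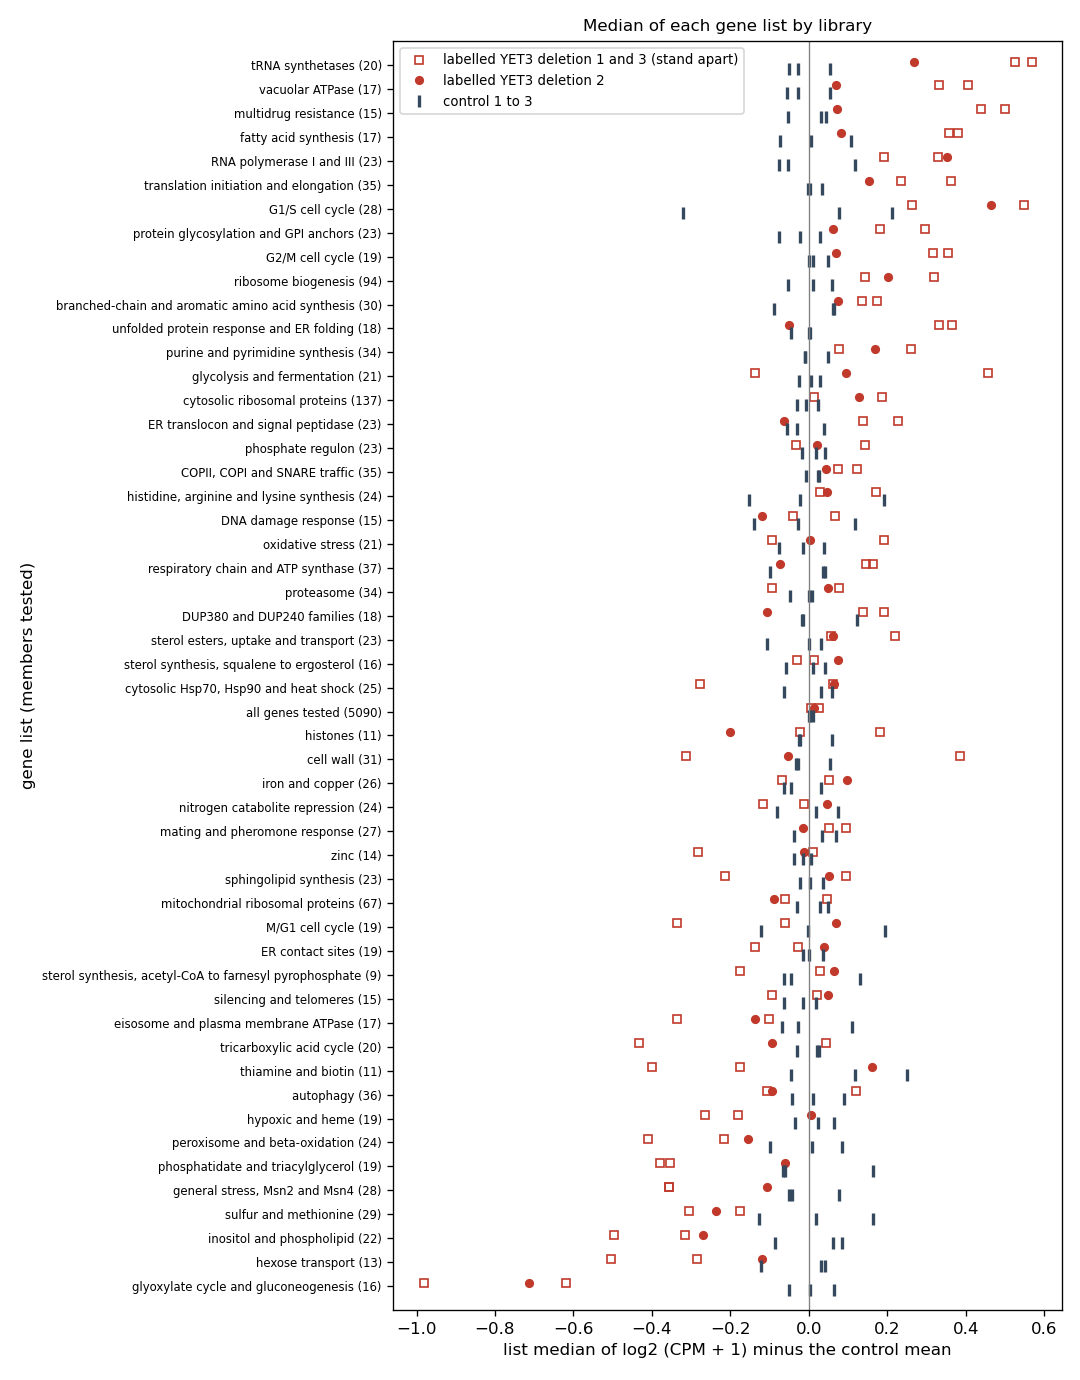
Median of each of the 51 gene lists with at least 5 tested genes, and of all genes, in each library, as log2 (CPM + 1) minus the mean over the control libraries; red symbols are libraries labelled YET3 deletion and dark bars are control libraries. Glyoxylate cycle and gluconeogenesis genes are the lowest list at -0.98 to -0.62, and tRNA synthetases, the highest by fitted median, lie at 0.27 to 0.57.

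Over the 51 lists, all 3 medians of the libraries labelled YET3 deletion were above all 3 control medians in 13 lists and below them in 6. Those below were inositol and phospholipid, glyoxylate and gluconeogenesis, peroxisome, general stress, sulfur and eisosome genes. Those above included tRNA synthetases, translation factors, RNA polymerases I and III, ribosome biogenesis, purine and pyrimidine, G1/S and G2/M genes. The rest above were sterol ester and transport, glycosylation, branched-chain and aromatic amino acid, vacuolar ATPase, vesicle traffic and multidrug resistance genes. Fitted medians lay between -0.2 and 0.2 for 35 lists, below -0.2 for 8 and above 0.2 for 8.

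Position and composition were examined over all genes. Medians per chromosome lay between -0.09 (chromosome IX) and 0.11 (chromosome III), and the chromosome III value was 0.01 with the library term. Medians by GC content differed most in the libraries that stand apart. Of 3 equal bins of genes, the one with the lowest GC content (10.4% to 38.5%) had medians of 0.25, 0.02 and 0.15 in the libraries labelled YET3 deletion 1, 2 and 3, against 0.03, 0.03 and -0.04 in the control libraries. In the bin with the highest (41.2% to 59.1%) they were -0.26, 0.00 and -0.14 against -0.02, 0.00 and 0.02. Fitted medians of 0.13 and -0.13 in these bins became -0.02 and 0.02 with the library term. The glyoxylate list has a median GC content of 41.9% and the tRNA synthetases of 40.0%, against 39.7% for all genes, and the part of composition in their medians was not tested.

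**Figure D5:**
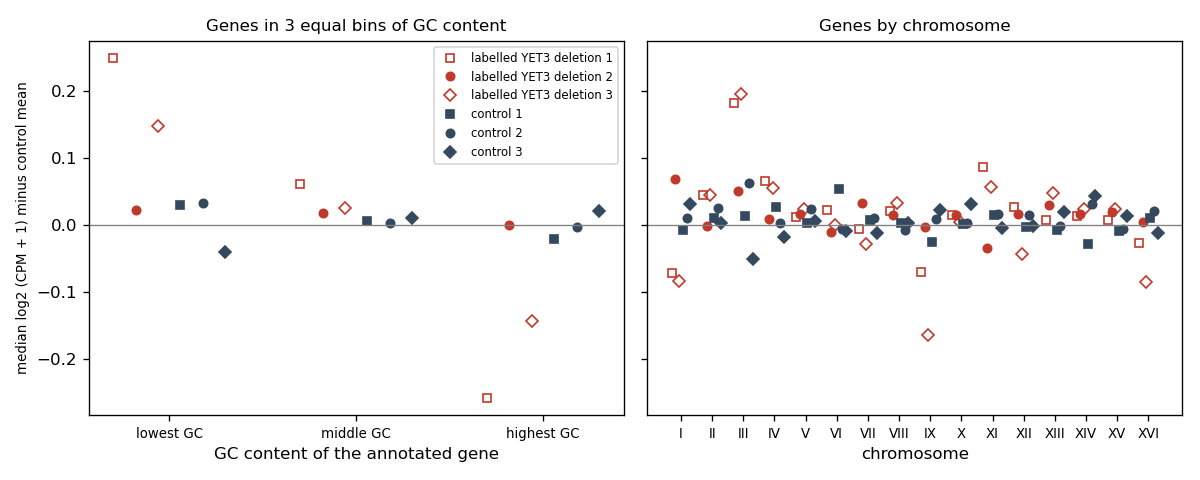
Median over genes of log2 (CPM + 1) minus the control mean, by GC content in 3 equal bins (left) and by chromosome (right), for each library labelled YET3 deletion (red) and control library (dark blue). Open red symbols, the repeats labelled 1 and 3, run from 0.25 and 0.15 in the lowest bin to -0.26 and -0.14 in the highest, while the filled red circle lies at 0.02 and 0.00 in those bins.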

How the data were processed

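The authors deposited 1 table of raw UMI counts per gene for each library, whole numbers with no normalization; per the submitters' processing notes, cutadapt and UMI-tools were used with the R64 build, and none of the sources at hand names the aligner. Of 6631 rows, 2 repeated identifiers were dropped, leaving 6629 (5956 matched to the RefSeq R64 annotation). edgeR 4.0.16 was run on all 9 libraries with filterByExpr (minimum count 10, minimum total 15), TMM, the quasi-likelihood test and Benjamini-Hochberg adjustment over 5090 genes, called under 0.05, and was tested on simulated data. CPM are TMM-scaled, and log2 values of single libraries add 1 CPM. Log2 fold changes come from the fit. Floors of 3 counts cover counting error only. Alternatives used DESeq2 1.42.0, other filters, fewer libraries, a replicate block and a term for libraries with YLR154W rows under 0.5% of counts. Same-numbered libraries were not treated as pairs except in the replicate block.

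Members and gene lists were chosen with earlier results of these data known. Genes named were drawn from the genotype genes, the neighbours of YET3, those called, the inositol list, and up to 4 genes of each other list by p-value. They were also drawn from the 12 smallest p-values in each direction among separated genes of at least 20 CPM. Not every member of these sets is given. CAT8, ERG6, FBP1, HAC1, HXT2, HXT6, MDH2, MLS1, MOG1 and SFC1 were named after their values were seen.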

Additional observations from a re-analysis of the deposited data

How the results depend on the processing

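INO1 stayed lower and called under every alternative, including each of the 6 left-out libraries, the replicate block and both other filters; without the libraries that stand apart, 5 genes were called lower, by DESeq2 5 and in a fit of the 6 libraries compared 3 (INO1, ECM13 and HO). With a replicate block the counts stayed at 1 lower and 0 higher. Same-numbered libraries had correlations of 0.13, -0.10 and -0.06 in their deviations from the group means. These values show no clear pairing by number, but so few libraries per group cannot exclude it. The cause of each move below was not tested. Medians that moved by more than the SD over the libraries labelled YET3 deletion were, with the library term, 0.090 for sterol synthesis, acetyl-CoA to farnesyl pyrophosphate, 0.18 for sterol synthesis, squalene to ergosterol, -0.062 for ER translocon and signal peptidase, -0.054 for general stress, Msn2 and Msn4, -0.020 for hexose transport, -0.095 for respiratory chain and ATP synthase, 0.027 for vacuolar ATPase and 0.011 for chromosome III. Without the libraries that stand apart they were -0.00013 for phosphatidate and triacylglycerol, 0.048 for sterol synthesis, acetyl-CoA to farnesyl pyrophosphate, -0.076 for ER translocon and signal peptidase, -0.12 for hexose transport, -0.13 for respiratory chain and ATP synthase and 0.046 for vacuolar ATPase. With 1 library left out, medians ran from -0.16 to 0.083 for sterol synthesis, acetyl-CoA to farnesyl pyrophosphate, 0.00065 to 0.12 for sterol synthesis, squalene to ergosterol, -0.29 to -0.16 for sulfur and methionine, -0.24 to 0.0074 for eisosome and plasma membrane ATPase, -0.45 to -0.26 for hexose transport, 0.17 to 0.36 for RNA polymerase I and III and 0.13 to 0.40 for G1/S cell cycle. Of the genes given with a log2 fold change in the text, those that changed sign with the library term went to -0.025 for BRE1, -0.19 for CDS1, 0.22 for ERG6, -0.16 for HAC1, 0.23 for HIS3, 0.090 for HMG2, 0.094 for INO2, 0.066 for PCT1, -0.089 for PIS1 and 0.20 for SCS2, and without the libraries that stand apart to -0.28 for CDS1, -0.048 for HAC1, 0.23 for HIS3, -0.26 for MET14, -0.050 for PIS1, 0.026 for SCS2 and -0.54 for YET3. With 1 library left out CDS1 and INO2 changed sign as well, over ranges of -0.15 to 0.36 and -0.81 to 0.29. YET1, at 0.00, was at -0.14, -0.042, -0.0095, -0.0096, -0.0084 and -0.0032 under 6 alternatives and at -0.13 to 0.14 with 1 library left out. Totals down to 223189 counts limit genes of few counts, such as HO and PCK1.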
